A study of Macaca mulatta with 25 samples.

Results

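Blastocysts of rhesus macaques from mothers with testosterone implants (T) were compared with blastocysts from control mothers (C). All 10 T libraries and all 5 C libraries of a count table with 25 libraries were taken by their labels, and the comparison covers all 13934 genes that passed a filter on low counts. T mothers carried implants that held circulating testosterone at 3 to 5 times the normal level, and C mothers carried cholesterol implants. Both ate the same chow, with 15% of fat, 59% of carbohydrate and 26% of protein, so diet did not separate them. Implants began at about 2.5 years of age, shortly before puberty, in 10 females per group. After 5 to 6 years 7 T and 10 C females went through ovarian stimulation with human gonadotropins. Eggs were fertilised with semen of 4 males, embryos were cultured for up to 8 days, and the zona, the outer coat, was removed. Only the mothers were treated, and the labels do not tie a library to a mother, a father or a collection day, nor say whether 1 library is 1 embryo. Embryos may therefore share mothers, and p-values measure only the spread between these libraries.

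The blastocyst holds an outer trophectoderm, which attaches to the uterus and founds the placenta, and an inner mass of epiblast (the embryo proper) and primitive endoderm (the yolk sac lining). When trophectoderm cells fuse they form syncytiotrophoblast, which secretes chorionic gonadotropin, and CGA encodes the alpha subunit of that hormone. Testosterone is the main androgen in the blood, and its excess in females is a feature of polycystic ovary syndrome. The comparison addresses whether a mother's long exposure to testosterone leaves a trace in the transcripts of her embryos.

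Total counts were 14219054 to 26753850 in T and 15272016 to 27659266 in C. The controls were not alike. The summed level of 5 syncytiotrophoblast markers was 16.8 to 1724 CPM (counts scaled to equal library size, here with TMM factors) in T libraries, where T 1 was highest and the other 9 reached at most 122 CPM. C 1 stood at 18.6 CPM and C 2 at 30.5, but C 8 at 5654, C 11 at 2922 and C 12 at 6787. CGA itself had 0.0878 to 1004 CPM in T libraries (median 0.876), against C 1 at 1.23 CPM, C 2 at 0.325, C 8 at 3025, C 11 at 2400.3 and C 12 at 1073. Epiblast markers were lowest in C 8, C 11 and C 12: 4 of them summed to 477 to 1075 CPM in T, against C 1 at 1142 CPM, C 2 at 629, C 8 at 262, C 11 at 9.26 and C 12 at 1.25. The 7 trophectoderm markers had counts in every library, with a sum of 2988 to 12315 CPM in T and 1612 to 13258 CPM in C. Markers of the outer layer were thus present in every library, and those of the epiblast were near 0 in C 11 and C 12. In whole embryos, fewer cells of a type and less RNA per cell cannot be told apart. Of markers for other cells, those of cumulus and granulosa cells, which surround the egg, summed to 1.19 to 33.6 CPM in T and 6.17 to 1122 CPM in C, with C 11 highest. In C 11 that sum came from VCAN (667 CPM), HAS2 (267) and INHA (188), while FOXL2, FSHR and PTX3 had 0 CPM there. FOXL2 was highest in C 12, at 10.9 CPM. Sperm markers, and the blood markers HBA1 of red cells and PTPRC of leukocytes, summed to less than 2 CPM in every library, and PRM2 of sperm and HBA1 had 0 counts in all 15. Among further genes listed for blood, ALAS2, which begins heme synthesis in red cells and did not pass the count filter, had at most 0.598 CPM in T, against 46.2 CPM in C 11, 101 CPM in C 12 and 0 CPM in the other controls. CD14, a receptor of monocytes, had 0 to 5.68 CPM in T libraries (median 2.39), against C 1 at 2.88 CPM, C 2 at 3.38, C 8 at 4.68, C 11 at 239.9 and C 12 at 0.0522, and fell (log2 change -4.17 ± 1.09 SE, adjusted p = 0.0293), but the change was 0.017 without C 11.

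Few genes were higher in T embryos and many were lower. With edgeR's quasi-likelihood test and Benjamini-Hochberg adjustment, 47 genes rose (0.337% of 13934) and 526 fell (3.77%), which together is 4.11%. The median log2 change over all genes tested was -0.12, so that levels in T were on balance slightly under those in C on this scaling. It was 0.023 when counts were scaled by library totals and -0.19 with DESeq2 size factors. In only 39 genes (0.28%) did every T library lie to one side of every C library, with T above C in 25 (0.179%) and below in 14 (0.1%). Of the genes that passed, 10 of 47 higher and 8 of 526 lower ones had groups that did not overlap.

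The number of genes called depended on single libraries. Without C 8, C 11 and C 12 the same test called 0 genes higher and 1 lower (0.00718%). An unadjusted p under 0.05 was then found in 678 of 13934 genes, against 2544 with all controls. The 678 are close to the number that this threshold gives by chance. Without C 12 alone 64 genes passed, among them 4 of the 47 higher and 56 of the 526 lower genes. Of 104 genes selected by rule, 83 lost their call without C 12 and 32 without C 11, and the log2 change moved by over 1.5 times in 46 and in 9 of them. Without C 11 463 genes passed and without C 8 727 did. Leaving out a control of the other kind raised the count to 1249 (C 1) and 1063 (C 2), and leaving out T 1 raised it to 911. Without any 1 of the other T libraries it was 373 to 451, with 373 without T 3 and 381 without T 10. A fit on T and C libraries alone, which uses only their spread, called 114 genes (0.818%), with 5 of the 47 and 106 of the 526 among them. DESeq2 called 1102 genes, with 45 of the 47 and 436 of the 526 among them, and limma with quality weights called 0, with 1249 genes at an unadjusted p under 0.05. Of the 104 selected genes, 45 lost their call when counts were scaled by library totals and 67 in the fit on T and C alone. Among higher genes, POLA1, CKAP5 and DNAH3 were among those that passed in that fit.

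In all 526 lower genes at least 1 of C 8, C 11 and C 12 lay above every T library. C 12 did so for 487 of the 526, C 11 for 370 and C 8 for 318, against 93 for C 2 and 90 for C 1. These genes were called because controls exceeded T, so the counts only set the controls beside each other. For 213 genes all of C 8, C 11 and C 12 lay above every T library, for 223 exactly 2 of them did, and for 90 exactly 1 did. For 379 genes neither C 1 nor C 2 exceeded the highest T library. The highest control was C 12 for 377 genes, C 11 for 84, C 8 for 62, C 1 for 2 and C 2 for 1. Among T libraries, T 1, which had the highest syncytiotrophoblast sum, was also the highest for 235 of the 526, against 16 to 52 for each of the others. With C 1 and C 2 as the only controls 298 of the 526 kept a negative sign. All 47 higher genes kept a positive sign with those 2 controls. The lowest control for these genes was C 12 for 21, C 11 for 13, C 1 for 8, C 8 for 3 and C 2 for 2. C 12 lay below every T library for 40 of the 47, C 11 for 38, C 2 for 31, C 8 for 28 and C 1 for 21. The part of the 3 controls' cell makeup in these changes was not tested.

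**Figure D1:**
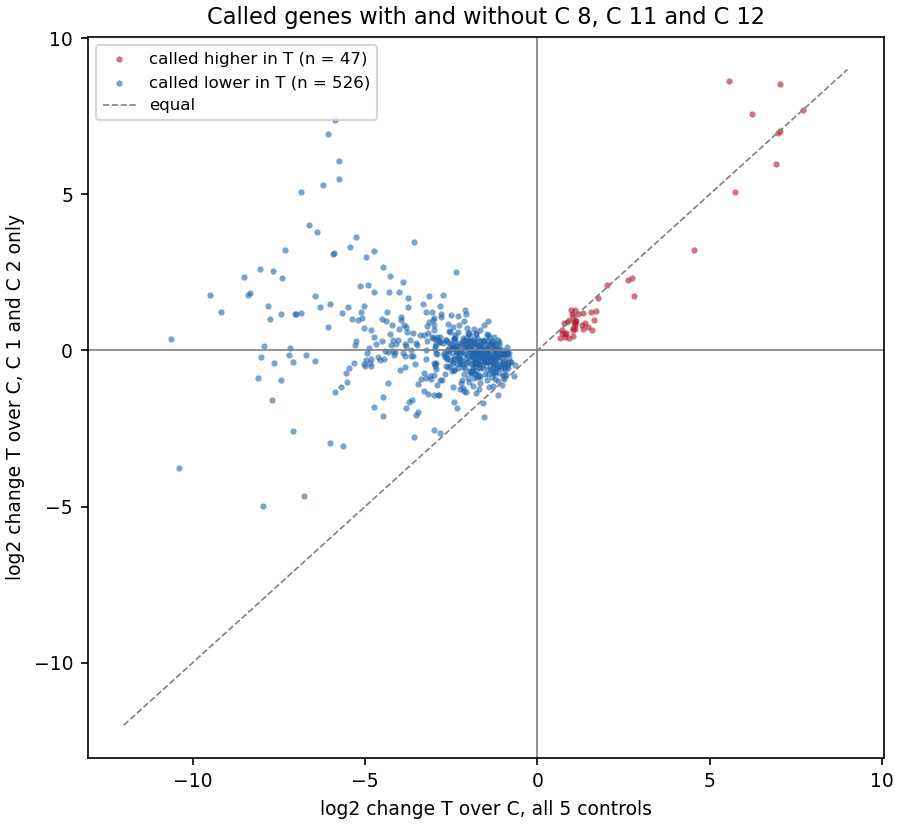
Each point is a gene called in T against C, with its log2 change using all 5 controls on the x axis and using C 1 and C 2 only on the y axis, and the dashed line marks equal values. The 47 genes called higher (red) all stay above 0, whereas the 526 called lower (blue) spread around 0, where 298 stay negative.

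The higher genes held several that copy DNA or divide the cell. POLA1, the catalytic subunit of the polymerase that primes new DNA strands, had 53.1 to 155 CPM in T libraries (median 101), against C 1 at 25.7 CPM, C 2 at 25.6, C 8 at 46.8, C 11 at 20.1 and C 12 at 14.4. The groups did not overlap, and the log2 change was 2.01 ± 0.36 (SE, adjusted p = 0.00392). MCM4, a subunit of the helicase that unwinds DNA at replication forks, had 524 to 768 CPM in T libraries (median 682), against C 1 at 489.9 CPM, C 2 at 424, C 8 at 463, C 11 at 233 and C 12 at 409.8. Again every T library exceeded every control, with a log2 change of 0.72 ± 0.19 (SE, adjusted p = 0.0339). MSH6, which recognises mismatched bases, had 359 to 645 CPM in T libraries (median 459.8), against C 1 at 334 CPM, C 2 at 264, C 8 at 275, C 11 at 46.7 and C 12 at 32.9. The lowest T library and C 1 were close, and C 11 and C 12 were far below, with a log2 change of 1.31 ± 0.37 (SE, adjusted p = 0.0444). BRCA1, which acts in the repair of double-strand breaks, also rose (log2 change 1.11 ± 0.29 SE, adjusted p = 0.0276), but C 1, at 54.7 CPM, lay inside the T range of 51.1 to 78.4 CPM. Without C 12 the log2 changes were 1.86 for POLA1, 0.73 for MCM4, 1.05 for MSH6 and 1.04 for BRCA1. POLA1 alone among them still passed (adjusted p = 0.0247).

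Of 47 DNA replication genes tested, 2 rose (POLA1 and MCM4) and 0 fell, so that 4.26% were called, beside 4.11% of all genes. That 4.11% is mostly genes that fell (3.77%), and 0.337% of all genes rose. A positive sign was found in 44 (93.6%), beside 43.8% of all genes tested. The median log2 change of the list was 0.55, beside -0.12 over all genes. Without C 8, C 11 and C 12 it was 0.12 for the list and 0.082 over all genes. The mean log2(CPM + 1) of the list was 6.68 to 6.90 in T, against C 1 at 6.74, C 2 at 6.57, C 8 at 6.37, C 11 at 5.44 and C 12 at 4.80. C 12 was low for most of these genes but not for all. PCNA, the clamp that holds polymerases on DNA, had 211 to 431 CPM in T libraries (median 311), against C 1 at 309.9 CPM, C 2 at 354, C 8 at 248, C 11 at 110.2 and C 12 at 1566. MCM7, a partner of MCM4, had 292 to 509 CPM in T libraries (median 409), against C 1 at 343 CPM, C 2 at 371, C 8 at 348, C 11 at 153 and C 12 at 2088. In both genes C 12 was the highest of the 15 libraries, and neither gene passed (adjusted p = 0.276 and 0.291).

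Of 49 genes of mitosis and the spindle, 4 rose and 0 fell (8.16% called, beside 4.11% of all genes called and 0.337% that rose). The median log2 change of the list was 0.68, or 0.31 without the 3 controls. CKAP5, which lengthens spindle microtubules, had 123 to 233 CPM in T libraries (median 180.4), against C 1 at 109 CPM, C 2 at 83.4, C 8 at 104, C 11 at 93.1 and C 12 at 47.3. The groups did not overlap although T 1, at 123 CPM, stood near C 1, and the log2 change was 1.08 ± 0.21 (SE, adjusted p = 0.00699). ANAPC1, the largest subunit of the complex that triggers chromosome separation, had 64.6 to 331 CPM in T libraries (median 158), against C 1 at 93.9 CPM, C 2 at 49.4, C 8 at 67.98, C 11 at 17.1 and C 12 at 32.3. Here C 1 and C 8 reached into the T range (log2 change 1.70 ± 0.36 SE, adjusted p = 0.0107). CCNB1, the cyclin that starts mitosis, and CENPF, a kinetochore protein, rose by 1.04 and 1.30 on the log2 scale (adjusted p = 0.0423 and 0.0446). CCNB1 had 908 CPM in C 1, inside its T range of 669 to 1195 CPM. Without C 12 the log2 changes were 0.94 for CKAP5, 1.58 for ANAPC1, 0.84 for CCNB1 and 1.08 for CENPF. CKAP5 alone among them still passed (adjusted p = 0.0292). Of 41 DNA repair genes 2 rose and 0 fell (4.88% called, beside 0.337% of all genes that rose), with a median of 0.43.

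Among the higher genes were also KPNB1 and NUP155, which act in transport through the nuclear pore. KPNB1, the importin that carries proteins into the nucleus, had 82.3 to 224 CPM in T libraries (median 167), against C 1 at 94.4 CPM, C 2 at 76.9, C 8 at 86.8, C 11 at 79.5 and C 12 at 42.5. C 1 and C 8 lay just inside the T range, and the log2 change was 1.07 ± 0.25 (SE, adjusted p = 0.0157). NUP155, a scaffold protein of the pore, had 209.7 to 304 CPM in T libraries (median 255), against C 1 at 151 CPM, C 2 at 62.6, C 8 at 248, C 11 at 85.2 and C 12 at 56.3. C 8 alone overlapped T, with a log2 change of 1.11 ± 0.27 (SE, adjusted p = 0.0199). Without C 12 neither KPNB1 nor NUP155 passed, each with a log2 change of 0.93 (adjusted p = 0.0735 and 0.0975). Of 49 genes of the pore and nuclear transport 3 were called (6.12%, beside 4.11% of all genes). KPNB1 and NUP155 rose, and the mRNA export factor NXF1 fell (log2 change -1.71 ± 0.41 SE, adjusted p = 0.0187). NXF1 had 91.7 to 158 CPM in T libraries (median 142), against C 1 at 129.9 CPM, C 2 at 149, C 8 at 133, C 11 at 275 and C 12 at 1545, so that C 11 and C 12 lay above T and the other controls inside its range. Without C 12 its log2 change was -0.33 and did not pass (adjusted p = 0.674).

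A gene of cell adhesion rose as well. CTNNA1, the alpha-catenin that ties cadherins to actin, had 255 to 641 CPM in T libraries (median 415), against C 1 at 178 CPM, C 2 at 177, C 8 at 275, C 11 at 249.9 and C 12 at 198. Only C 8 reached the T range, and the log2 change was 0.99 ± 0.26 (SE, adjusted p = 0.032). Without C 12 it was 0.97 and did not pass (adjusted p = 0.122). Of 35 cell junction genes 2 were called (5.71%, beside 4.11% of all genes). CTNNA1 rose, and PRKCZ, an atypical protein kinase C of the apical membrane, fell (log2 change -1.82 ± 0.39 SE, adjusted p = 0.0113). PRKCZ had 37.7 to 105 CPM in T libraries (median 65.3), against C 1 at 82.5 CPM, C 2 at 80.8, C 8 at 300.5, C 11 at 504 and C 12 at 217, so that C 8, C 11 and C 12 lay above the T range and C 1 and C 2 inside it.

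Among metabolic genes, FABP5, a carrier of fatty acids, had 396 to 1408 CPM in T libraries (median 681), against C 1 at 455 CPM, C 2 at 407, C 8 at 267, C 11 at 135 and C 12 at 53.4. C 1 and C 2 lay inside the T range and the other controls below it (log2 change 1.65 ± 0.38 SE, adjusted p = 0.0147). HK2, a hexokinase that traps glucose in the cell, had 366 to 1112 CPM in T libraries (median 676), against C 1 at 553 CPM, C 2 at 351, C 8 at 165, C 11 at 28.6 and C 12 at 82.5, with C 1 alone inside the T range (log2 change 1.58 ± 0.42 SE, adjusted p = 0.0329). HK2 was the single gene of 24 in glycolysis that passed (4.17%, beside 4.11% of all genes called and 0.337% that rose). SLCO1A2, a carrier of organic anions that takes up bile acids and steroid conjugates, had 36.4 to 291 CPM in T libraries (median 53.4), against C 1 at 14.7 CPM, C 2 at 25.7, C 8 at 16.3, C 11 at 10.99 and C 12 at 5.33. The groups did not overlap, and the log2 change was 2.75 ± 0.69 (SE, adjusted p = 0.0231). SERINC5, a membrane protein that restricts retroviruses, had 97.1 to 197 CPM in T libraries (median 140.4), against C 1 at 62.5 CPM, C 2 at 71.1, C 8 at 98.8, C 11 at 64.8 and C 12 at 26.6. C 8 only just exceeded the lowest T library (log2 change 1.17 ± 0.26 SE, adjusted p = 0.0123). Without C 12 the log2 changes were 1.41 for FABP5, 1.38 for HK2, 2.56 for SLCO1A2 and 0.98 for SERINC5. SERINC5 alone among them still passed (adjusted p = 0.0496).

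Other higher genes with groups that did not overlap included DNAH3 and NLRP9. DNAH3, a heavy chain of axonemal dynein, had 5.71 to 32.8 CPM in T libraries (median 18.4), against C 1 at 4.05 CPM, C 2 at 3.51, C 8 at 4.22, C 11 at 0.675 and C 12 at 1.72 (log2 change 2.64 ± 0.63 SE, adjusted p = 0.0188). NLRP9, of a family of innate immune sensors with members expressed in eggs and early embryos, had 21.2 to 129.9 CPM in T libraries (median 49.2), against C 1 at 14.3 CPM, C 2 at 19.2, C 8 at 2.90, C 11 at 0.412 and C 12 at 2.14 (log2 change 2.82 ± 0.79 SE, adjusted p = 0.0406). Both were lowest in C 11, with C 12 next. Neither passed without C 12, where the log2 changes were 2.52 for DNAH3 and 2.60 for NLRP9 (adjusted p = 0.0942 and 0.171). GRK6, a kinase that desensitises G protein-coupled receptors, rose by 0.92 on the log2 scale (adjusted p = 0.0233), and C 8, at 48.6 CPM, was just inside its T range of 47.7 to 128 CPM. Without C 12 GRK6 did not pass (log2 change 0.87, adjusted p = 0.0933). FAM227A had 0 counts in all 5 controls and 149 counts over the T libraries, of which 1 also had 0. Its levels in T were low, at 0 to 3.21 CPM (median 0.455), with T 8 highest. With no count in C, it passed the count filter through other libraries alone. Set against a floor of 3 counts over the C group, it was at least 25.1-fold higher in T (adjusted p = 0.0237). The filter could admit such a gene only if it was higher outside C, so this p is no independent support. It did not pass without C 12 (adjusted p = 0.101) or in the fit on T and C alone (adjusted p = 0.073). Among all genes tested, 10 had no count in any C library and 0 had none in any T library, in groups of unequal size. The heat shock proteins HSPA4 and HSP90AA1, both chaperones of the cytosol, rose by 0.79 and 0.83 (adjusted p = 0.0277 and 0.0496). They were 2 of 26 in that list (7.69%, beside 4.11% of all genes called and 0.337% that rose), with 0 that fell. Without C 12 neither passed, with log2 changes of 0.87 and 0.73. HSP90AA1 has near-identical copies, so its counts are uncertain. The same holds for RPL6, the 1 of 74 ribosomal protein genes that rose (log2 change 0.82, adjusted p = 0.0463). RPS27L, a p53-induced ribosomal protein, was the 1 that fell (log2 change -1.88, adjusted p = 0.0168). Without C 12 the log2 changes were 0.72 for RPL6 and -1.14 for RPS27L, and neither passed.

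**Figure D2:**
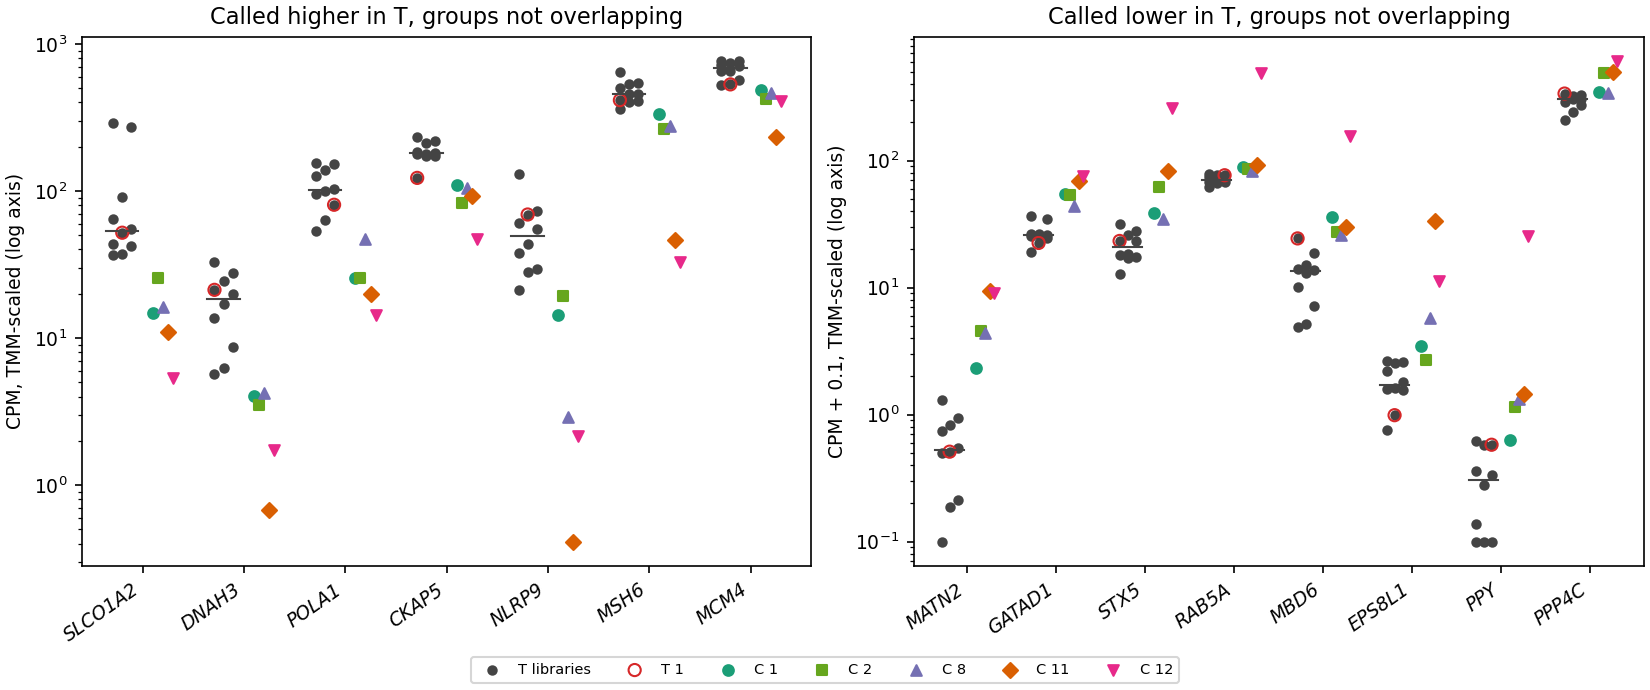
Levels in each library are shown for 7 higher genes (left) and the 8 lower genes (right) whose T and C libraries do not overlap, with CPM on log axes (plus 0.1 in the right panel), T libraries as black dots left of the C libraries, a bar at the T median and T 1 ringed in red. C 11 or C 12 is the farthest control from T for most genes, while the controls of GATAD1 lie close together at 43.7 to 75.1 CPM.

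In 8 of the lower genes C 1 and C 2 were also above every T library, as were the other 3 controls. STX5, a Golgi syntaxin that fuses vesicles from the endoplasmic reticulum (ER), had 12.7 to 31.3 CPM in T libraries (median 20.6), against C 1 at 38.5 CPM, C 2 at 61.6, C 8 at 34.7, C 11 at 82.4 and C 12 at 257. The log2 change was -2.15 ± 0.35 (SE, adjusted p = 0.00311), and -1.20 with C 1 and C 2 as the only controls. GATAD1, a zinc finger protein bound to chromatin, had 18.8 to 36.4 CPM in T libraries (median 25.8), against C 1 at 54.6 CPM, C 2 at 52.99, C 8 at 43.7, C 11 at 68.3 and C 12 at 75.1. The controls lay close together, and the log2 change was -1.15 ± 0.28 (SE, adjusted p = 0.0201). MBD6, a methyl-CpG-binding domain protein, had 4.78 to 24.3 CPM in T libraries (median 13.3), against C 1 at 35.8 CPM, C 2 at 27.4, C 8 at 25.9, C 11 at 29.9 and C 12 at 155. C 8, the lowest control, was just above the highest T library (log2 change -2.13 ± 0.52 SE, adjusted p = 0.0201). RAB5A, the GTPase of early endosomes, had 61.98 to 77.6 CPM in T libraries (median 70.6), against C 1 at 89.4 CPM, C 2 at 86.2, C 8 at 83.1, C 11 at 92.8 and C 12 at 488. Of the 5 controls 4 sat within 83.1 to 92.8 CPM, and the log2 change of -1.24 ± 0.31 (SE, adjusted p = 0.0236) was -0.30 without C 12. The same omission gave -1.33 for STX5, -1.03 for GATAD1 and -1.24 for MBD6. Of RAB5A, STX5, GATAD1 and MBD6, STX5 alone still passed without C 12, and GATAD1 had an adjusted p of 0.103.

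PPP4C, the catalytic subunit of protein phosphatase 4, had 208 to 337 CPM in T libraries (median 303), against C 1 at 343 CPM, C 2 at 486, C 8 at 339, C 11 at 494 and C 12 at 610.0. The gap between the groups was narrow, and the log2 change was -0.64 ± 0.16 (SE, adjusted p = 0.0266). MATN2, a matrix protein of the matrilin family, had 0 to 1.20 CPM in T libraries (median 0.426), against C 1 at 2.23 CPM, C 2 at 4.49, C 8 at 4.27, C 11 at 9.34 and C 12 at 8.88. Every control exceeded every T library at levels of a few CPM, with a log2 change of -3.58 ± 0.97 (SE, adjusted p = 0.0341). EPS8L1, an actin regulator, had 0.654 to 2.56 CPM in T libraries (median 1.60), against C 1 at 3.35 CPM, C 2 at 2.60, C 8 at 5.64, C 11 at 33.1 and C 12 at 11.1, where C 2 and the highest T library were nearly level (log2 change -2.68 ± 0.70 SE, adjusted p = 0.0293). PPY, which encodes pancreatic polypeptide, was at most 0.516 CPM in T and 0.529 to 25.2 CPM in C, with all controls but C 12 under 2 CPM (log2 change -4.73 ± 1.30 SE, adjusted p = 0.0366). Neither EPS8L1 without C 11 (log2 change -1.71) nor PPY without C 12 (-2.24) passed. PPP4C (-0.49) and MATN2 (-3.38) did not pass without C 12 either (adjusted p = 0.143 and 0.138). A single gene, ADIPOR1, passed with C 1 and C 2 as the only controls, and it is named because of that result. ADIPOR1, a receptor for the fat-derived hormone adiponectin, had 23.96 to 51.2 CPM in T libraries (median 37.7), against C 1 at 279 CPM, C 2 at 68.5, C 8 at 26.9, C 11 at 46.98 and C 12 at 149.7. Its log2 change was -1.55 ± 0.36 (SE, adjusted p = 0.0164) with all controls and -2.12 with those 2 (adjusted p = 0.0439), and C 8 and C 11 lay inside the T range. Without C 1 its log2 change was -0.90 and did not pass (adjusted p = 0.0927).

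The genes that fell with the smallest p included several of ER stress. When unfolded proteins gather in the ER, the kinase PERK (EIF2AK3) slows translation and raises the factors ATF4 and DDIT3, while another arm acts through XBP1 and raises chaperones. Of 23 genes of the PERK and ATF4 response 8 fell and 0 rose (34.8% called, beside 4.11% of all genes). The median log2 change of the 23 was -1.67, or 0.35 without C 8, C 11 and C 12. Of the 8, C 12 was the highest control for 7, 4 still passed without C 12, and 7 passed in the fit on T and C alone. DDIT3, the stress factor CHOP, had 10.1 to 67.3 CPM in T libraries (median 19.5), against C 1 at 11.04 CPM, C 2 at 21.9, C 8 at 268, C 11 at 302 and C 12 at 8642. C 1 and C 2 lay inside the T range and the other controls above it, with a log2 change of -6.09 ± 0.90 (SE, adjusted p = 0.00239) that became -2.47 without C 12 and 0.74 with C 1 and C 2 only. EIF2AK3 had 6.24 to 29.5 CPM in T libraries (median 16.7), against C 1 at 23.7 CPM, C 2 at 15.9, C 8 at 543, C 11 at 55.3 and C 12 at 421. Here C 8 was the highest, and the log2 change was -3.62 ± 0.55 (SE, adjusted p = 0.00239).

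TRIB3, a pseudokinase induced by DDIT3, had 2.13 to 17.9 CPM in T libraries (median 5.65), against C 1 at 9.51 CPM, C 2 at 3.84, C 8 at 9.20, C 11 at 96.8 and C 12 at 851. C 11 and C 12 alone exceeded the T range (log2 change -4.70 ± 0.79 SE, adjusted p = 0.00311). HERPUD1, a membrane protein of ER-associated degradation, had 18.5 to 115 CPM in T libraries (median 58.4), against C 1 at 30.8 CPM, C 2 at 74.9, C 8 at 189, C 11 at 1361 and C 12 at 3912, with C 8, C 11 and C 12 above the T range (log2 change -4.24 ± 0.66 SE, adjusted p = 0.00239). PPP1R15A, which ends the block on translation, had 7.57 to 48.7 CPM in T libraries (median 29.1), against C 1 at 34.8 CPM, C 2 at 12.8, C 8 at 37.3, C 11 at 271 and C 12 at 2109, with C 11 and C 12 alone above T (log2 change -4.05 ± 0.70 SE, adjusted p = 0.00339). ATF3, CEBPB and CEBPG, further factors of this response, fell by 4.38, 2.98 and 1.55 on the log2 scale (adjusted p = 0.00501, 0.00484 and 0.0202). For each of the 3, C 8, C 11 and C 12 lay above every T library and C 1 and C 2 did not. Without C 12 the log2 changes were -1.98 for TRIB3, -2.81 for HERPUD1, -1.58 for PPP1R15A and -0.84 for CEBPG, and of these 4 HERPUD1 still passed. ATF4 itself had 101 to 351 CPM in T libraries (median 219.8), against C 1 at 227 CPM, C 2 at 148, C 8 at 194, C 11 at 413 and C 12 at 1570.5, and its log2 change of -1.23 did not pass (adjusted p = 0.0629).

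Of 29 ER chaperones and degradation genes 7 fell (24.1%) and 0 rose, and C 12 was the highest control for all 7. XBP1 had 122 to 336 CPM in T libraries (median 196), against C 1 at 208 CPM, C 2 at 281, C 8 at 261, C 11 at 650.5 and C 12 at 3911. C 11 and C 12 alone exceeded every T library (log2 change -2.42 ± 0.45 SE, adjusted p = 0.00501). HSPA5, the main ER chaperone BiP, had 1826 to 3412 CPM in T libraries (median 2409), against C 1 at 2459 CPM, C 2 at 2649, C 8 at 2226, C 11 at 7467 and C 12 at 25900.2, again with C 11 and C 12 above T and the other controls inside its range (log2 change -1.64 ± 0.45 SE, adjusted p = 0.0361). DNAJB9, a partner of HSPA5, had 15.3 to 71.4 CPM in T libraries (median 31.6), against C 1 at 39.6 CPM, C 2 at 60.2, C 8 at 55.9, C 11 at 319 and C 12 at 946 (log2 change -2.98 ± 0.50 SE, adjusted p = 0.00311). P4HB, HYOU1, SEC61B and CREB3L2 made up the 7. None of the 7 passed without C 12, where the log2 changes were -0.80 for XBP1, -0.49 for HSPA5, -1.71 for DNAJB9, -0.45 for P4HB, -0.83 for HYOU1, -0.45 for SEC61B and -1.09 for CREB3L2. The median log2 change of the 29 was -0.75, or 0.054 without the 3 controls. Of 39 tRNA synthetases 3 fell (7.69%, beside 4.11% of all genes called), AARS1, CARS1 and SARS1, each highest in C 12. AARS1 had 145 to 475 CPM in T libraries (median 350.2), against C 1 at 284 CPM, C 2 at 250.0, C 8 at 299.6, C 11 at 560.5 and C 12 at 5345 (log2 change -2.05 ± 0.49 SE, adjusted p = 0.0177). Without C 12 none of the 3 passed, with log2 changes of -0.091 for AARS1, -0.32 for CARS1 and -0.58 for SARS1.

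**Figure D3:**
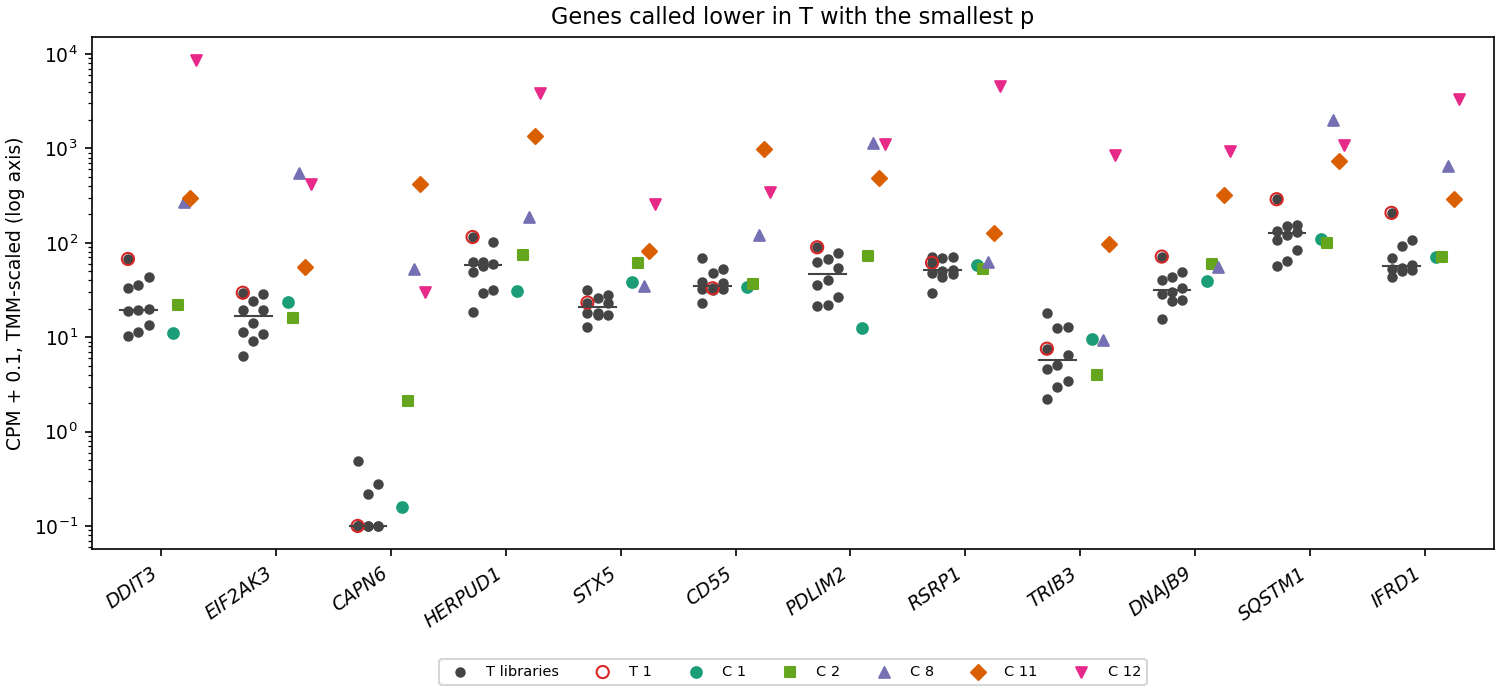
The 12 genes with a symbol called lower in T with the smallest p are shown as CPM plus 0.1 on a log axis, with T libraries as black dots (T 1 ringed in red, bar at the median) left of the C libraries. C 8, C 11 and C 12 stand above the T libraries for most of these genes, while C 1 and C 2 lie among or below them except for STX5 and, in C 2, for CAPN6.

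Targets of p53, which halts the cell cycle or starts cell death after damage, were also among the lower genes. Of 25 tested 8 fell and 0 rose (32.0% called, beside 4.11% of all genes). The median log2 change of the list was -0.90, or -0.34 without the 3 controls. C 12 was the highest control for all 8, and 1 still passed without it. CDKN1A, the cell cycle inhibitor p21, had 8.38 to 124 CPM in T libraries (median 33.9), against C 1 at 54.5 CPM, C 2 at 85.4, C 8 at 563, C 11 at 1436 and C 12 at 4135. The 3 controls C 8, C 11 and C 12 lay above T, C 1 and C 2 inside, and the log2 change was -4.46 ± 0.76 (SE, adjusted p = 0.00312). PLK2, a kinase induced by stress, had 16.4 to 95.8 CPM in T libraries (median 38.9), against C 1 at 20.3 CPM, C 2 at 26.5, C 8 at 95.4, C 11 at 653 and C 12 at 8761. C 11 and C 12 stood out, with a log2 change of -5.37 ± 0.92 (SE, adjusted p = 0.00339). BBC3, the death activator PUMA, had 3.78 to 19.7 CPM in T libraries (median 9.11), against C 1 at 18.9 CPM, C 2 at 35.2, C 8 at 16.2, C 11 at 24.00 and C 12 at 261. C 12 was far above the rest, C 2 and C 11 were also over the T range, and the log2 change of -2.84 ± 0.55 (SE, adjusted p = 0.00699) became -1.24 without C 12. GADD45A, MDM2, AEN, POLH and DDB2 were the other 5. Without C 12 the log2 changes were -2.10 for PLK2, -0.79 for GADD45A, -0.071 for AEN, -0.35 for POLH and -0.68 for DDB2, and none of these 5 passed. Of 13 genes of the BCL2 family, which decides on cell death, 2 fell (15.4%), BBC3 and the survival factor BCL2L1 (log2 change -1.23 ± 0.34 SE, adjusted p = 0.0358), and neither passed without C 12.

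Genes outside these lists followed the same controls. RSRP1, which encodes a protein rich in arginine and serine, had 29.6 to 70.96 CPM in T libraries (median 50.8), against C 1 at 58.3 CPM, C 2 at 52.5, C 8 at 63.2, C 11 at 128 and C 12 at 4630.5. C 11 was above the T range and C 12 far above, and the log2 change of -4.19 ± 0.70 (SE, adjusted p = 0.00311) was -0.48 without C 12. SQSTM1, the autophagy receptor p62, had 56.4 to 289.6 CPM in T libraries (median 126), against C 1 at 109 CPM, C 2 at 99.5, C 8 at 2021, C 11 at 728 and C 12 at 1091. C 8 was highest and T 1 the top of T, with a log2 change of -2.65 ± 0.45 (SE, adjusted p = 0.00311). Of 33 autophagy and lysosome genes 5 fell (15.2%, beside 4.11% of all genes called), SQSTM1, GABARAP, ULK1, WIPI2 and NBR1, and 0 rose. IFRD1, a transcriptional regulator, had 43.7 to 207 CPM in T libraries (median 56.5), against C 1 at 70.3 CPM, C 2 at 70.2, C 8 at 645, C 11 at 292 and C 12 at 3369.7 (log2 change -3.50 ± 0.59 SE, adjusted p = 0.00312). PDLIM2, a PDZ and LIM domain protein that limits NF-kB, had 21.4 to 89.6 CPM in T libraries (median 47.2), against C 1 at 12.3 CPM, C 2 at 72.96, C 8 at 1128, C 11 at 492 and C 12 at 1125 (log2 change -3.51 ± 0.58 SE, adjusted p = 0.00311). For both, C 8, C 11 and C 12 exceeded every T library. Without C 12 the log2 changes were -1.78 for IFRD1, -0.95 for GABARAP and -0.28 for NBR1, and none of these 3 passed. RSRP1, ULK1 and WIPI2 did not pass there either.

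Immediate early genes, which respond to stimuli within minutes, included 3 that fell of 20 (15.0%, beside 4.11% of all genes called): ATF3, JUNB and ZFP36. JUNB, of the AP-1 family, had 27.7 to 74.2 CPM in T libraries (median 47.9), against C 1 at 38.5 CPM, C 2 at 35.6, C 8 at 350.4, C 11 at 264 and C 12 at 1143, and C 8, C 11 and C 12 exceeded all T libraries (log2 change -2.91 ± 0.51 SE, adjusted p = 0.00339). Of 19 NF-kB genes 3 fell (15.8%), RELA, NFKBIB and IKBKG, and each was highest in C 12. RELA, a subunit of NF-kB, had 12.4 to 36.3 CPM in T libraries (median 23.7), against C 1 at 55.4 CPM, C 2 at 23.4, C 8 at 28.6, C 11 at 89.1 and C 12 at 226, with C 1, C 11 and C 12 over the T range (log2 change -1.79 ± 0.37 SE, adjusted p = 0.0092). Of 19 Hippo pathway genes, which govern trophectoderm identity, 4 fell (21.1%): TEAD1, LATS2, and the targets CCN1 and CCN2. CCN2 had 10.6 to 29.4 CPM in T libraries (median 15.4), against C 1 at 10.9 CPM, C 2 at 12.2, C 8 at 132, C 11 at 4.01 and C 12 at 1009.5, so that C 8 and C 12 exceeded T while C 11 was under it (log2 change -3.78 ± 0.74 SE, adjusted p = 0.00704). Of 23 hypoxia targets VEGFA, BNIP3L and KDM3A fell (13.0%). KDM3A, a histone demethylase, had 26.1 to 65.3 CPM in T libraries (median 37.2), against C 1 at 19.1 CPM, C 2 at 26.1, C 8 at 449, C 11 at 138 and C 12 at 946 (log2 change -3.01 ± 0.53 SE, adjusted p = 0.00382). C 8, C 11 and C 12 exceeded every T library, and C 1 lay under them. Without C 12 the log2 changes were -1.0 for RELA, -1.83 for JUNB, -0.15 for NFKBIB, 0.12 for IKBKG, -0.62 for TEAD1, -0.39 for LATS2, -0.35 for CCN1 and -1.24 for CCN2, and none of these 8 passed. ATF3, ZFP36, VEGFA, BNIP3L and KDM3A did not pass there either.

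Placental genes varied widely between libraries. ERVFRD-1, which encodes the fusion protein syncytin-2, had 0.0578 to 60.4 CPM in T libraries (median 0.904), against C 1 at 2.29 CPM, C 2 at 0.195, C 8 at 1449, C 11 at 402 and C 12 at 5493. T 1 was the highest T library, C 8, C 11 and C 12 lay above it, and C 1 and C 2 lay inside the T range. The log2 change was -7.68 ± 1.64 (SE, adjusted p = 0.0114), but 2.55 with C 1 and C 2 only, and 0.13 when T 1 was left out as well. It was the single one of 12 placental genes to pass (8.33%, beside 4.11% of all genes), and CGA did not (log2 change -3.68 ± 1.71 SE, adjusted p = 0.249). T 1 alone held 1004 CPM of CGA, and without T 1 the log2 change of CGA was -10.04 and passed (adjusted p = 0.000334). Outside that list CGB8, a beta subunit of chorionic gonadotropin that has near-identical copies and whose counts are therefore uncertain, fell (log2 change -8.52 ± 1.60 SE, adjusted p = 0.00551). CGB8 had 0 to 2.87 CPM in T libraries (median 0.0445), against C 1 at 0 CPM, C 2 at 0.13, C 8 at 269.8, C 11 at 349 and C 12 at 3.81, and was named after its values were seen. TFAP2A, a trophectoderm transcription factor, was the 1 of 14 trophectoderm genes that passed (7.14%). It had 7.91 to 306 CPM in T libraries (median 35.1), against C 1 at 27.5 CPM, C 2 at 46.9, C 8 at 1147, C 11 at 521 and C 12 at 1161, with the same 3 controls above T (log2 change -3.20 ± 0.73 SE, adjusted p = 0.0143). CAPN6, a calpain without protease activity that is abundant in placenta, had at most 0.393 CPM in T, with 0 counts in 7 of 10 T libraries and 14 counts in all. Among controls the levels were C 1 at 0.0587 CPM, C 2 at 2.02, C 8 at 52.1, C 11 at 423 and C 12 at 30.1. All controls but C 1 exceeded every T library, and the log2 change was -10.41 ± 1.59 (SE, adjusted p = 0.00239). CD55, which shields cells from complement, had 22.7 to 68.4 CPM in T libraries (median 35.02), against C 1 at 34.2 CPM, C 2 at 36.6, C 8 at 121, C 11 at 981 and C 12 at 348, and was highest in C 11 (log2 change -2.94 ± 0.48 SE, adjusted p = 0.00311, and -1.77 without C 11). Without C 12 CGB8, CAPN6 and CD55 still passed. ERVFRD-1 (log2 change -6.04) and TFAP2A (-2.80) did not (adjusted p = 0.0865 and 0.104).

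Some imprinted growth genes and implantation signals also fell. IGF2, the fetal growth factor, had 0 to 36.3 CPM in T libraries (median 0.644), against C 1 at 0.0587 CPM, C 2 at 0.975, C 8 at 118, C 11 at 999.8 and C 12 at 212. CDKN1C, a growth inhibitor, had 0.619 to 123 CPM in T libraries (median 2.06), against C 1 at 0.235 CPM, C 2 at 3.32, C 8 at 932, C 11 at 573 and C 12 at 686. The log2 change was -5.93 ± 1.44 (SE, adjusted p = 0.021) for IGF2 and -4.96 ± 1.30 (SE, adjusted p = 0.0306) for CDKN1C, and in both T 1 led the T libraries and C 8, C 11 and C 12 lay above it. With C 1 and C 2 as the only controls their log2 changes were 3.08 and 2.99, and with T 1 left out as well they were 0.74 and 0.19. Without T 1 alone the log2 change of CDKN1C was -7.78. SLC22A18, a transporter imprinted in the same region, made up the 3 of 12 imprinted genes that fell (25%, beside 4.11% of all genes called). Of 25 implantation signals 3 fell (12.0%, beside the same 4.11%). VEGFA, the vessel growth factor, had 0.274 to 159 CPM in T libraries (median 6.23), against C 1 at 3.23 CPM, C 2 at 8.78, C 8 at 353, C 11 at 218 and C 12 at 1157 (log2 change -4.01 ± 1.07 SE, adjusted p = 0.0339). PTGS2, the prostaglandin synthase, had 0 to 7.37 CPM in T libraries (median 0.149), against C 1 at 0 CPM, C 2 at 0, C 8 at 58.8, C 11 at 74.7 and C 12 at 145 (log2 change -5.87 ± 1.60 SE, adjusted p = 0.0362). HBEGF, a growth factor that embryos and uterus exchange at attachment, had 0 to 5.80 CPM in T libraries (median 1.50), against C 1 at 0.352 CPM, C 2 at 27.5, C 8 at 0.356, C 11 at 19.1 and C 12 at 525 (log2 change -6.01 ± 1.21 SE, adjusted p = 0.00852). For VEGFA and PTGS2, C 8, C 11 and C 12 lay above every T library, and for HBEGF C 2, C 11 and C 12 did. Without C 12 none of IGF2, CDKN1C, SLC22A18, VEGFA, PTGS2 and HBEGF passed. Their log2 changes were then -6.01, -4.77, -4.56, -2.77, -5.12 and -2.73, in that order.

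The 3 controls were not high for all of the same genes. The 6 lower genes with the smallest p among those highest in C 11 were CAPN6, CD55, FGB, PLG, CGB8 and APOB. FGB, a fibrinogen chain, had 0.112 to 6.49 CPM in T libraries (median 0.589), against C 1 at 1.06 CPM, C 2 at 0.39, C 8 at 65.7, C 11 at 4727 and C 12 at 0.157. APOB, the protein of lipoproteins, had 0 to 3.30 CPM in T libraries (median 0.377), against C 1 at 0.235 CPM, C 2 at 2.21, C 8 at 15.8, C 11 at 1344 and C 12 at 0.157, and PLG, plasminogen, was at 455 CPM in C 11 and at most 1.78 CPM in every other control. C 8 also lay above every T library for FGB and APOB. The log2 changes of FGB, APOB and PLG were -9.19, -8.03 and -8.10 (adjusted p = 0.00392, 0.00626 and 0.00422), and these 3 were named after their values were seen. Without C 11 none of the 3 passed, with log2 changes of -3.34 for FGB, -2.13 for APOB and -1.18 for PLG. FADS2, which desaturates fatty acids, had 0 to 5.40 CPM in T libraries (median 2.04), against C 1 at 0.705 CPM, C 2 at 3.97, C 8 at 46.5, C 11 at 1485 and C 12 at 7.94 (log2 change -7.19 ± 1.45 SE, adjusted p = 0.00879). VCAN, a proteoglycan on the cumulus list, had 0 to 9.72 CPM in T libraries (median 1.16), against C 1 at 2.00 CPM, C 2 at 0.455, C 8 at 27.97, C 11 at 667 and C 12 at 0 (log2 change -5.66 ± 1.43 SE, adjusted p = 0.0266). Without C 11 neither passed, with log2 changes of -2.81 for FADS2 and -1.46 for VCAN. Among lower genes highest in C 8 was NRARP, a Notch target, with 0.0516 to 1.57 CPM in T libraries (median 0.654), against C 1 at 0.764 CPM, C 2 at 1.43, C 8 at 137, C 11 at 13.9 and C 12 at 11.8. It was also named after its values were seen, and its log2 change was -5.47 ± 0.97 (SE, adjusted p = 0.00392), or -3.26 without C 8.

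Lists tied to the hormone itself held 1 called gene or 0 each, beside a share of 4.11% of all genes. Of 22 androgen-responsive genes 1 (4.55%) fell, B2M, the light chain of class I antigens, and 0 rose, with a median log2 change of -0.18. B2M had 26.2 to 379 CPM in T libraries (median 72.7), against C 1 at 16.03 CPM, C 2 at 128, C 8 at 195, C 11 at 814 and C 12 at 2067, with C 11 and C 12 above T (log2 change -2.57 ± 0.72 SE, adjusted p = 0.0423, and -1.40 without C 12). FKBP5, which androgens and glucocorticoids induce, had 24.6 to 73.4 CPM in T libraries (median 50.7), against C 1 at 99.5 CPM, C 2 at 42.1, C 8 at 28.5, C 11 at 116 and C 12 at 2.87, and did not pass (adjusted p = 0.877). Of 19 steroid receptors and coregulators none passed, with a median of 0.10. An unadjusted p under 0.05 was found in 3 and DESeq2 called 0, beside 2544 and 1102 of all 13934 genes. Of 21 genes of steroid synthesis and metabolism 1 (4.76%) fell, HSD17B2, which inactivates testosterone and estradiol. It had 0 to 1.96 CPM in T libraries (median 0.232), against C 1 at 0.587 CPM, C 2 at 1.76, C 8 at 1.42, C 11 at 123 and C 12 at 7.63, so that C 11 and C 12 alone exceeded T (log2 change -5.70 ± 1.27 SE, adjusted p = 0.0135, and -2.47 without C 11). CYP11A1, which begins steroid synthesis, had 198 to 809.8 CPM in T libraries (median 337), against C 1 at 432 CPM, C 2 at 102, C 8 at 2618, C 11 at 806 and C 12 at 834, and did not pass (adjusted p = 0.174).

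Lists of metabolism and pluripotency are set beside the 4.11% of all genes that were called, a share at which a list of 14 to 61 genes holds few calls. Over all 13934 genes tested, 2544 had an unadjusted p under 0.05 and DESeq2 called 1102, and the list counts below are read beside these. Of 32 genes of pyruvate entry and the TCA cycle none passed with edgeR, with 8 at an unadjusted p under 0.05 and 2 called by DESeq2. The median log2 change was 0.30, or 0.022 without C 8, C 11 and C 12. Of 61 nuclear genes of the respiratory chain none passed, with 7 at an unadjusted p under 0.05 and 0 called by DESeq2. The median was 0.19, but -0.29 without C 8, C 11 and C 12. Fatty acid oxidation (26 genes, with 4 at an unadjusted p under 0.05 and 0 called by DESeq2) and the proteasome (43 genes, with 2 at an unadjusted p under 0.05 and 1 called by DESeq2) had none that passed either. By mean log2(CPM + 1), C 8, C 11 and C 12 lay under the T range for the TCA list (C 12 at 5.34, T 6.62 to 6.91). C 11 and C 12 did for the respiratory chain (C 12 at 5.62, T 6.02 to 7.09). For fatty acid oxidation C 8 and C 12 did (C 12 at 3.79, T 5.44 to 5.86). The other controls lay inside the T range in these 3 lists. Insulin and IGF signalling had 3 genes that fell of 35 (8.57%): IGF2, IRS2 and GSK3B. Cholesterol genes had 2 that fell of 31 (6.45%), TM7SF2 and NR1H2. Without C 12 the log2 changes were -2.47 for IRS2 and -0.22 for GSK3B and without C 11 that of TM7SF2 was -0.58, and none of these 3 passed there. NR1H2, a sterol sensor of the LXR type, had 55.9 to 93.4 CPM in T libraries (median 71.4), against C 1 at 128 CPM, C 2 at 89.9, C 8 at 78.2, C 11 at 164 and C 12 at 191 (log2 change -0.84 ± 0.24 SE, adjusted p = 0.0463), where C 1, C 11 and C 12 exceeded every T library but C 2 and C 8 did not. Of 14 epiblast genes none passed, with 4 at an unadjusted p under 0.05 and 2 called by DESeq2, although 13 (92.9%) had a positive sign and the median was 1.01. It was 0.46 without the 3 controls. POU5F1, which keeps cells pluripotent, had 341 to 965 CPM in T libraries (median 729), against C 1 at 1068 CPM, C 2 at 525, C 8 at 206, C 11 at 8.51 and C 12 at 0.627 (log2 change 0.86 ± 0.74 SE, adjusted p = 0.606). Levels in C 1 and C 2 were within or above the T range, and those in C 8, C 11 and C 12 below it. None passed among 15 oocyte transcripts (with 3 at an unadjusted p under 0.05 and 1 called by DESeq2) and 17 primitive endoderm genes (with 5 at an unadjusted p under 0.05 and 2 called by DESeq2). The mean log2(CPM + 1) of the primitive endoderm list was 4.16 to 6.41 in T. C 1 (3.01) and C 12 (2.29) lay below that range, C 11 (7.43) above it, and C 2 and C 8 inside it. T 11 alone had an oocyte marker sum of 148 CPM, against at most 30.1 CPM in every other T library and 1.73 to 27.7 CPM in C.

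Of 17 genes that write, read or remove DNA methylation 2 fell (11.8%, beside 4.11% of all genes called), DNMT3L and MBD1. DNMT3L, a cofactor of the enzymes that set new methylation, had 481 to 1196 CPM in T libraries (median 869.9), against C 1 at 1218 CPM, C 2 at 1386, C 8 at 2584, C 11 at 435 and C 12 at 4360.1. C 11 was below the T range and the other 4 controls above it, with a log2 change of -1.20 ± 0.31 (SE, adjusted p = 0.03). Without C 12 the log2 changes were -0.69 for DNMT3L and -0.25 for MBD1, and neither passed. Of 28 antioxidant enzymes 1 fell (3.57%), the quinone reductase NQO1. It had 3.08 to 15.2 CPM in T libraries (median 8.90), against C 1 at 26.8 CPM, C 2 at 6.70, C 8 at 10.7, C 11 at 322 and C 12 at 2.09, and C 1 and C 11 exceeded every T library (log2 change -3.09 ± 0.70 SE, adjusted p = 0.0141). Without C 11 its log2 change was -0.42 and did not pass. Of 42 splicing factors 1 fell (2.38%), the kinase CLK4. It had 16.3 to 36.6 CPM in T libraries (median 27.1), against C 1 at 26.1 CPM, C 2 at 15.1, C 8 at 41.03, C 11 at 28.98 and C 12 at 336 (log2 change -1.76 ± 0.46 SE, adjusted p = 0.03). Without C 12 its log2 change was -0.072 (adjusted p = 0.963).

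**Figure D4:**
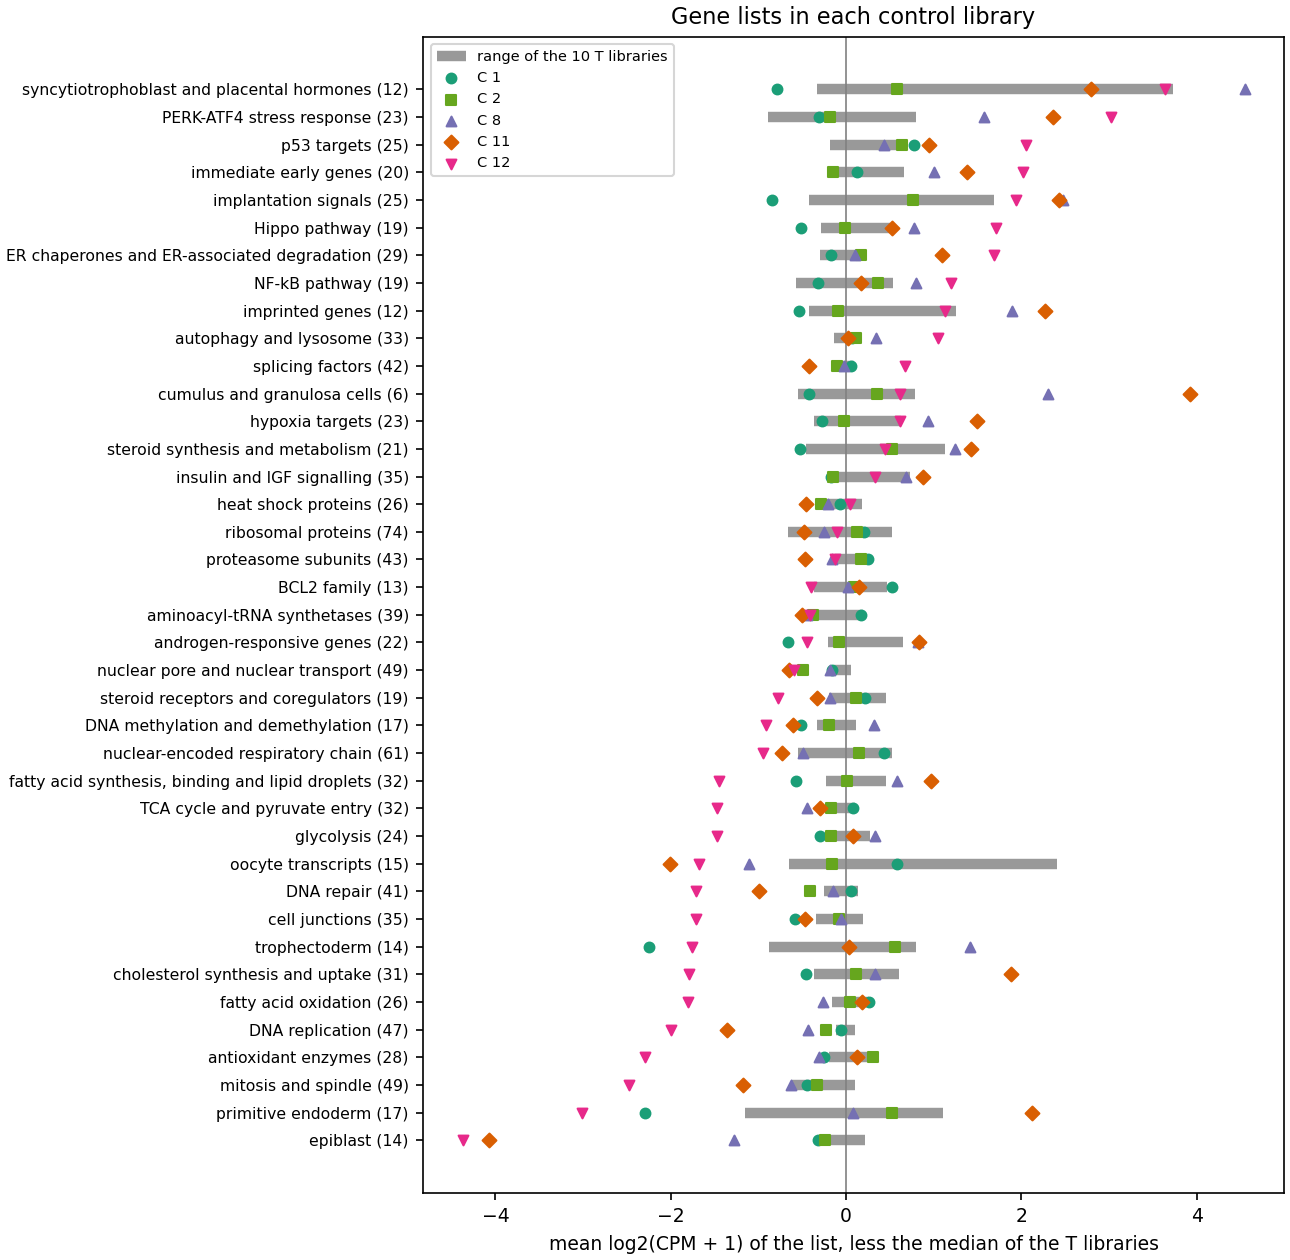
Each row is a gene list with its number of tested genes in brackets, the x axis gives the mean log2(CPM + 1) of the list less the median of the T libraries, the grey bar is the range of the 10 T libraries and the symbols are the 5 controls. C 12 lies above the T range for the lists of stress, p53 and autophagy genes and below it for epiblast, mitosis and DNA replication genes.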

How the data were processed

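RNA sequencing libraries of rhesus macaque blastocysts were compared, 10 T and 5 C of 25. The authors deposited 1 table of raw counts per gene with no normalization (35395 genes). FastQC 0.11.8, Trimmomatic 0.39, STAR 2.7.0 and the build Mmul_10 are named per the submitters' processing notes. The sources used here do not give the counting tool, annotation or strand setting, so overlapping, antisense and near-identical genes may share reads. A symbol table named 24173 identifiers, and 12605 of the genes tested.

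A gene was tested if 5 or more libraries reached 1 CPM (13934 genes). TMM scaling and a fit in edgeR 4.0.16 (R 4.3.3) used all 25 libraries and 4 groups, which share 1 estimate of the spread. T over C was tested with the quasi-likelihood F-test with robust dispersions. Benjamini-Hochberg adjustment ran over all genes, with a threshold of 0.05. Every adjusted p comes from this test unless another fit is named. Alternatives used DESeq2 1.42.0, limma 3.58.1, other scalings and filters, left-out libraries and a replicate block. The fit was tested on simulated data. Over 55 pairs of libraries within T or C the smallest chi-square per gene was 71.7, so none was counted as a repeat. A lower bound of a fold uses 3 counts over a group, and covers counting error only.

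The gene lists and members were chosen with earlier results of these data known. Genes selected by rule have a symbol: they are the 12 higher and 12 lower ones with the smallest p, up to 10 higher and 10 lower ones with the widest gap between groups that do not overlap, and list members that passed. Other list members and cell markers are given as levels. Results of some genes are not reported here. No promoter or protein sequences were used here.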

Additional observations from a re-analysis of the deposited data

Results flagged for a closer look

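In 26 of 208 groups looked at (T and C for each of 104 genes selected by rule), 1 library stood apart from the rest of its group by Dixon's 95% criterion on log2 values, where chance alone gives about 1 in 20. T 1 was the highest T library in 7 of them, with 60.4 CPM for ERVFRD-1, 66.7 for CEBPB, 159 for VEGFA, 36.3 for IGF2, 123 for CDKN1C, 22.1 for SLC22A18 and 390.0 for GABARAP, and the lowest in 1, with 123 CPM for CKAP5. T 6 was the highest T library with 0.393 CPM for CAPN6 and 7.37 for PTGS2. T 9 was the lowest with 91.7 CPM for NXF1, and T 10 was the lowest with 7.57 CPM for PPP1R15A. C 12 was the highest control in 12, with 4630.5 CPM for RSRP1, 488 for RAB5A, 155 for MBD6, 25.2 for PPY, 366 for SEC61B, 261 for BBC3, 418 for POLH, 494 for NFKBIB, 609 for IKBKG, 250.0 for GSK3B, 286 for TEAD1 and 5345 for AARS1, and the lowest in 1, with 42.5 CPM for KPNB1. C 11 was the lowest control with 233 CPM for MCM4.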

How the results depend on the processing

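Scaling by DESeq2 size factors, non-robust dispersions and a filter at 5 CPM in 5 libraries kept the counts of higher and lower genes within 1.5 times of 47 and 526. Genes higher in T numbered 30 with library totals, 169 with DESeq2 and 6 with T and C alone, and 0 with limma (quality weights), with the replicate block, without C 8, C 11 and C 12, and without these and T 1. Genes lower in T numbered 210, 933 and 108 in the first 3 settings, 0 with limma, the replicate block and the fit without the 4 libraries, and 1 without the 3 controls. At an unadjusted p under 0.05 stood 1249 genes with limma, 786 with the block, 678 without the 3 controls and 693 without the 4 libraries. With edgeR on all 25 libraries 2544 did. Called genes with groups that did not overlap numbered 28 with DESeq2 size factors, 34 with DESeq2, 11 with no filter, 11 with T and C alone, 1 without the 3 controls, and 0 with limma, the block and the fit without the 4 libraries. Leaving out each library in turn gave 7 to 237 higher genes, 57 to 1012 lower genes and 5 to 103 with groups that did not overlap. The median log2 change of all genes was -0.19 with DESeq2 size factors and with DESeq2, 0.023 with library totals, -0.0021 with limma, 0 with no filter, 0.082 without the 3 controls, 0.051 without the 4 libraries and -0.14 to -0.048 with 1 library left out.

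T and C share the replicate numbers 1, 8 and 11, but correlations of the deviations of same-numbered libraries were -0.38, -0.17 and 0.10, and C 1 correlated best with T 3, C 8 with T 1 and C 11 with T 1. The numbers were therefore not taken as pairs, and the 0 calls of the block are given for completeness.

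Of the 104 genes selected by rule, 38 changed sign without C 8, C 11 and C 12, with log2 changes of DDIT3 0.74, HERPUD1 0.18, CD55 0.19, PDLIM2 0.24, TRIB3 0.20, SQSTM1 0.33, IFRD1 0.19, TFAP2A 0.78, ERVFRD-1 2.55, VCAN 1.20, PPP1R15A 0.35, ATF3 0.93, CEBPB 0.032, CEBPG 0.30, HSPA5 0.056, P4HB 0.012, CREB3L2 0.19, PLK2 1.01, JUNB 0.42, ZFP36 0.15, IKBKG 0.084, VEGFA 1.86, PTGS2 7.37, IGF2 3.08, CDKN1C 2.99, SLC22A18 2.66, MBD1 0.25, B2M 0.62, FADS1 1.02, IRS2 3.32, LATS2 0.083, CCN1 1.22, CCN2 0.58, NBR1 0.063, KDM3A 0.82, AARS1 0.31, SARS1 0.21 and CLK4 0.38. Without these controls and T 1, 32 changed sign, with log2 changes of DDIT3 0.49, HERPUD1 0.020, CD55 0.22, PDLIM2 0.10, TRIB3 0.20, SQSTM1 0.12, ERVFRD-1 0.13, VCAN 1.17, PPP1R15A 0.35, ATF3 0.77, CEBPG 0.37, HSPA5 0.10, CREB3L2 0.050, PLK2 0.88, JUNB 0.33, VEGFA 0.12, PTGS2 7.54, IGF2 0.74, CDKN1C 0.19, SLC22A18 1.03, NXF1 0.0031, MBD1 0.11, B2M 0.48, FADS1 0.85, IRS2 2.43, CCN1 0.95, CCN2 0.56, NBR1 0.11, KDM3A 0.75, AARS1 0.40, SARS1 0.12 and CLK4 0.32. With the replicate block 2 did, AEN 0.75 and IKBKG 0.64. Without C 11 alone CD14 0.017 changed sign, and without C 12 alone IKBKG 0.12. With 1 library left out the log2 change of CD14 ranged from -4.49 to 0.017 and that of IKBKG from -2.13 to 0.12. The cause was not tested. PTGS2 has 0 counts in both C 1 and C 2, so its values without the 3 controls depend on the fit and give no size of change. Under the other settings no selected gene changed sign. The biological coefficient of variation, a measure of the spread between libraries of a group, was 0.9. In the shallowest library 1 CPM is 14.2 counts.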
